A study of Mus musculus with 6 samples.

Results

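The genes described here are 7 genes of the major histocompatibility complex (MHC) class II pathway in mouse haematopoietic stem cells (HSCs). They were taken by symbol from a table of 23955 gene symbols: H2-Aa, H2-Ab1, H2-Eb1, H2-DMa, H2-DMb1, Cd74 and Ciita. All 7 were in the table, and all 7 were among the 11931 genes that reached a mean of at least 1 TPM over the libraries and were tested. TPM is a transcript abundance that is corrected for transcript length and scaled to the same total in every library, so levels can be set side by side between genes. The libraries came from C57BL/6 mice at 4 months of age. The db/db mice are homozygous for the db mutation in Lepr, the gene for the leptin receptor, which makes them obese. Their wild-type (WT) littermates were the controls. From each group, 20000 bone marrow cells per library were sorted as lineage-negative Sca-1+ c-Kit+ cells with CD150 and without CD48, after red cell lysis and enrichment for c-Kit. The labels describe 3 independent experiments with 1 WT and 1 db/db library each, which makes 6 libraries, and do not say whether a library pooled several mice. Values of single libraries are given in the order of experiments 1, 2 and 3, which are also the replicate numbers. The question was which genes differ between HSCs of obese and lean mice.

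MHC class II molecules are pairs of an alpha and a beta chain that show peptides from the endosome to CD4+ T cells. In mice of the C57BL/6 strain the chain pair at the surface is I-A, made from H2-Aa and H2-Ab1. The E alpha gene does not give a product in this strain, so that H2-Eb1, the E beta chain, has no partner. The chains are assembled with the invariant chain, encoded by Cd74, which fills the groove until proteases of the endosome cut it. The remaining fragment is exchanged for a peptide by the DM dimer, encoded by H2-DMa and H2-DMb1. Ciita encodes the transactivator that these genes are known to depend on in B cells, dendritic cells and macrophages. It binds no DNA itself and is recruited to a promoter module of an X box, bound by the RFX complex, and a Y box, bound by NF-Y, with CREB at a site beside the X box. Class II molecules are best known from antigen-presenting cells, and have also been described on stem and progenitor cells of the marrow.

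The promoter windows of 4 of the 7 genes were found in a RefSeq table of the GRCm38.p6 build, which is later than the mm9 build that the authors used. The 120 bases before the start site are shown for 3 of them. H2-Eb1 and H2-DMb1 hold matches to both the X and the Y core of the class II module. H2-Aa, which had no match to the X core as it was searched here, is shown beside them as the class II gene with the highest level. Capitals mark each match, on either strand, to the Y box core CCAAT, which reads ATTGG on the other strand, to the X box core, which is AGCAACTGATG in H2-Eb1 and was searched with any base allowed at the third, the fourth and the seventh place, and to TGACGTCA, a full CREB site that was added to the search after the sequences had been read. H2-Aa lies on the minus strand at chr17:34287824-34287943, H2-Eb1 on the plus strand at chr17:34305747-34305866 and H2-DMb1 on the plus strand at chr17:34153071-34153190.
H2-Aa: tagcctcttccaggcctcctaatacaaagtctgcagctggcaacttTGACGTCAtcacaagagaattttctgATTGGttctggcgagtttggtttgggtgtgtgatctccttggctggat
H2-Eb1: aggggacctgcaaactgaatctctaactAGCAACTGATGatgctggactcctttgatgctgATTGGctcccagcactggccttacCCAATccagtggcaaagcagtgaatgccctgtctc
H2-DMb1: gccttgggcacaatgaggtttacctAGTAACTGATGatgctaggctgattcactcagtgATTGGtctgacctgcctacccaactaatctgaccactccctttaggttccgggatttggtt

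The X core stood 22 bases before the nearest Y core in H2-Eb1 and 23 bases before it in H2-DMb1. H2-Aa had no match to the X core as searched, and its CREB site ended 18 bases before its Y core. The search allowed 1 pattern only, so it cannot show that H2-Aa lacks an X box of other letters. H2-DMa had 2 windows in the table, 1 with no match to any of the motifs and 1 with a CCAAT match alone. Outside the 7 genes, the class II gene H2-Eb2 held both cores at 22 bases from each other, and H2-Oa held them at 87 bases. Of 32851 windows of 300 bases, 37.41% held CCAAT, 0.968% held the X core, 0.3866% held both and 1.79% held TGACGTCA. A match of letters is a description of the sequence and does not show that a factor is bound.

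The chain genes of I-A, the invariant chain and the DM alpha chain were among the abundant transcripts of these HSCs, while the transactivator was near the lower limit of the tested genes. Over the 6 libraries the mean level was 379 TPM for H2-Aa (SD 107), 341 for Cd74 (SD 127), 283 for H2-DMa (SD 68.5), 243 for H2-Ab1 (SD 69.5), 74.7 for H2-DMb1 (SD 6.66), 20.3 for H2-Eb1 (SD 8.31) and 1.82 for Ciita (SD 1.5; n = 6 for each). H2-Aa ranked 278th of all symbols by its mean and was above 97.7% of the tested genes, whereas Ciita was above 6.52% of them. Neighbours in this order were not all separated by their spread. H2-Aa exceeded Cd74 in 5 of 6 libraries, Cd74 exceeded H2-DMa in 4 of 6, H2-DMa exceeded H2-Ab1 in 4 of 6, and the ranges of each of these pairs overlapped. Below H2-Ab1 the order was the same in all 6 libraries and no ranges of neighbours overlapped.

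**Figure D1:**
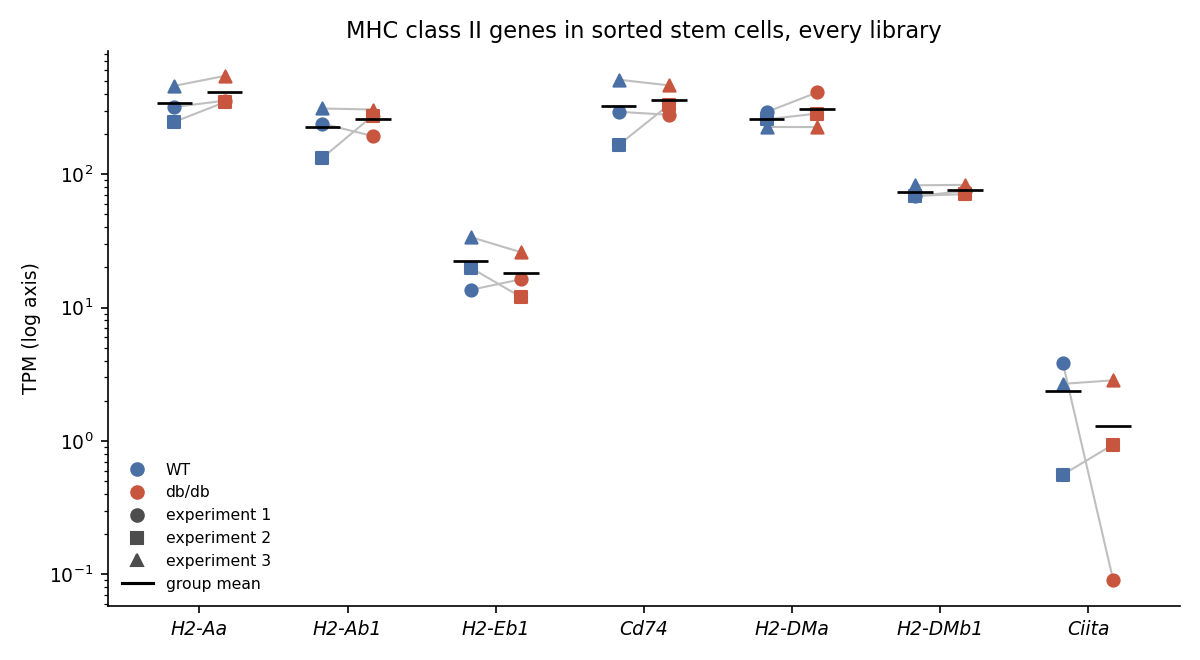
TPM on a log axis for the 7 class II genes in the 3 WT (blue) and 3 db/db (red) libraries, with the symbol shape giving the experiment, grey lines joining the libraries of 1 experiment and black bars at the group means. H2-Aa, Cd74, H2-DMa and H2-Ab1 lie between 132.54 and 544.94 TPM, and Ciita lies between 0.09 and 3.83 TPM.

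The I-A chain genes differed between db/db and WT HSCs by less than the spread between libraries. H2-Aa was 319, 247 and 460 TPM across WT and 355, 346 and 545 TPM across db/db. WT replicate 2 was the lowest, db/db replicate 3 the highest, and the groups overlapped, although db/db was the higher of the pair in all 3 experiments. The means were 342 ± 108 TPM for WT and 416 ± 112 TPM for db/db (SD, n = 3 each), and the log2 fold change, on the scale of log2(TPM + 1), was 0.30 (SE 0.26, 95% interval -0.25 to 0.84), which did not pass (limma adjusted p = 0.920, by Benjamini-Hochberg over all genes). The interval runs from a fold of 0.842 to 1.79. The log2 fold change of H2-Aa was 0.0846 without WT replicate 2, 0.0843 without db/db replicate 3, 0.53 without WT replicate 3 and 0.10 after median-of-ratios scaling. H2-Ab1 was 240, 133 and 311 TPM across WT and 193, 274 and 305 TPM across db/db. Here WT replicate 2 was again the lowest and WT replicate 3 the highest. The means were 228 ± 89.7 and 258 ± 58.0 TPM (SD, n = 3 each), with a log2 fold change of 0.24 (SE 0.29, interval -0.37 to 0.84, limma adjusted p = 0.926). In the experiments the differences of H2-Ab1 were -0.31, 1.04 and -0.03, and without WT replicate 2 the log2 fold change was -0.11.

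H2-Aa exceeded H2-Ab1 in every library, by a ratio of 1.26 to 1.86 with a median of 1.63. The ratio was 1.33, 1.86 and 1.48 across WT and 1.84, 1.26 and 1.78 across db/db, so that the groups overlapped in the balance of the alpha and beta transcripts as well.

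H2-Eb1 was much lower than the I-A chains in both genotypes. It was 13.6, 19.9 and 33.8 TPM across WT and 16.3, 12.0 and 26.0 TPM across db/db. Both libraries of experiment 3 were the highest, and the groups overlapped. The means were 22.4 ± 10.4 and 18.1 ± 7.17 TPM (SD, n = 3 each), with a log2 fold change of -0.27 (SE 0.40, interval -1.11 to 0.57, limma adjusted p = 0.929). Without WT replicate 3 it was 0.06, without db/db replicate 2 -0.02, without db/db replicate 3 -0.55 and after median-of-ratios scaling -0.45. H2-Aa exceeded H2-Eb1 by 12.4 to 28.8 times within a library and H2-Ab1 exceeded it by 6.65 to 22.8 times. The E alpha gene, under its symbol H2-Ea-ps, was listed at 0 in all 6 libraries, the WT and the db/db ones alike.

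Cd74, the invariant chain, followed H2-Ab1 closely from library to library. It was 294, 165 and 511 TPM across WT and 279, 331 and 463 TPM across db/db. Its order of the libraries from high to low, with WT replicate 3 first and WT replicate 2 last, was that of H2-Ab1, and the ratio of Cd74 to H2-Ab1 stayed between 1.21 and 1.64. The means were 323 ± 175 TPM for WT and 358 ± 95 TPM for db/db (SD, n = 3 each). The log2 fold change was 0.26 (SE 0.31, interval -0.39 to 0.91, limma adjusted p = 0.926), with differences of -0.07, 1.0 and -0.14 in the experiments. It was -0.15 without WT replicate 2, so its sign rested on that library.

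The DM genes, whose product loads peptide onto I-A, varied in another order. H2-DMa was 293, 258 and 226 TPM across WT and 410, 285 and 226 TPM across db/db. Experiment 1 gave the highest library of each genotype and experiment 3 the lowest, whereas H2-Eb1 was highest in experiment 3. The neutrophil granule genes Camp, Ltf, Ngp, S100a8 and S100a9 had a summed level that was also highest in experiment 1, at 4183, 170 and 243 TPM across WT and 3370, 1278 and 1226 TPM across db/db, and its part in the order of H2-DMa was not tested. The means were 259 ± 33.3 and 307 ± 94.3 TPM (SD, n = 3 each), with a log2 fold change of 0.21 (SE 0.25, interval -0.32 to 0.74, limma adjusted p = 0.926). Without db/db replicate 1 it was -0.02. H2-DMb1 was 68.4, 68.8 and 82.5 TPM across WT and 74.7, 70.9 and 83.2 TPM across db/db. Its log2 fold change was 0.06 (SE 0.27, interval -0.51 to 0.63, limma adjusted p = 0.984), and it was the steadiest of the 7 genes, with a smaller spread within groups in only 1.62% of the tested genes. Its near-identical copy H2-DMb2 was 6.07, 2.28 and 3.87 TPM across WT and 2.57, 0.78 and 0 TPM across db/db. H2-DMb2 was lower in db/db in each experiment, by -0.99, -0.88 and -2.28, but did not pass (log2 fold change -1.38, SE 0.60, limma unadjusted p = 0.0315, adjusted p = 0.899). The log2 fold change of H2-DMb2 was -2.65 with a pseudocount of 0.1 TPM. Reads that both copies share were divided by an estimate, so the level of either copy is uncertain. Their sum was 77.3 ± 8.06 TPM for WT and 77.4 ± 5.75 TPM for db/db (SD, n = 3 each).

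Ciita, the transactivator, was 3.83, 0.56 and 2.68 TPM across WT and 0.09, 0.94 and 2.85 TPM across db/db. WT replicate 1 was the highest and db/db replicate 1, from the same experiment, the lowest. The means were 2.36 ± 1.66 and 1.29 ± 1.41 TPM (SD, n = 3 each), and the log2 fold change of -0.59 (SE 0.64, interval -1.93 to 0.75, limma adjusted p = 0.925) rested on experiment 1, where the difference was -2.15, against 0.31 and 0.07 in experiments 2 and 3. It was -0.25 without WT replicate 1, and -0.15 with db/db replicate 1 left out. It was -1.07 without WT replicate 2, -1.06 without db/db replicate 3 and -1.21 with a pseudocount of 0.1 TPM in place of 1. The library with the least Ciita held 355 TPM of H2-Aa, 193 of H2-Ab1 and 279 of Cd74, and the library with the most held 319, 240 and 294 TPM. At levels as low as those of Ciita a TPM can stand on very few reads, and the number of reads is unknown here.

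**Figure D2:**
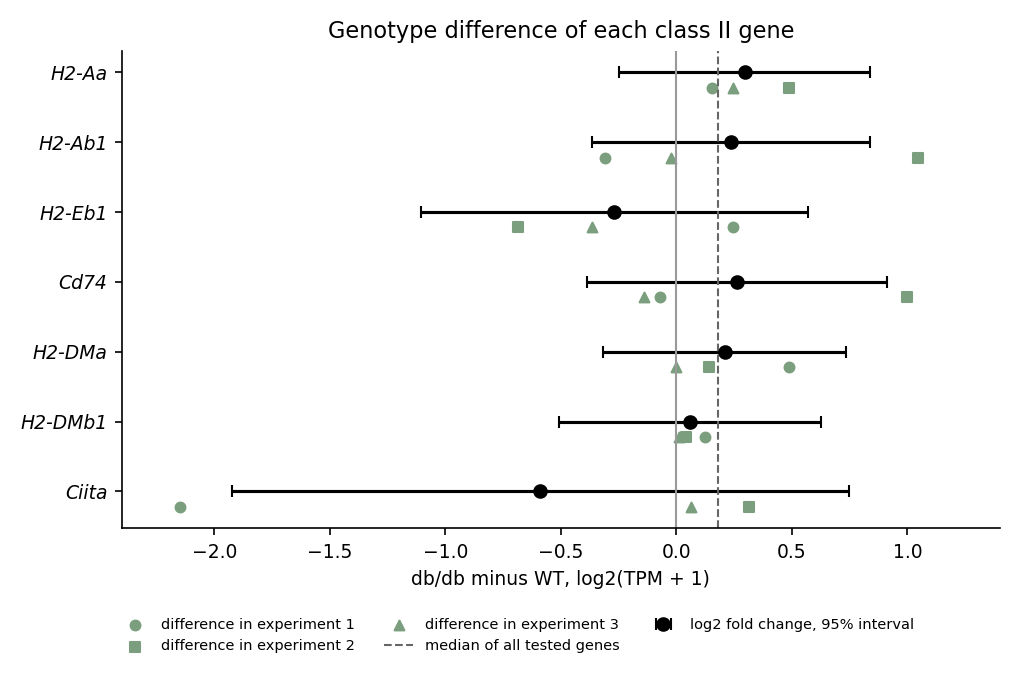
Difference of db/db from WT in log2(TPM + 1) for the 7 class II genes. Black points and bars are limma's log2 fold changes with 95% intervals, green symbols are the differences within the 3 experiments, and the dashed line is the median of all tested genes at 0.18. All 7 intervals include 0.

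None of the 7 genes passed over all genes in limma with Benjamini-Hochberg adjustment, 0 as higher and 0 as lower, where 0.0335% of all tested genes passed, each of them higher in db/db. With the experiments as a block none of the 7 passed either, where 0.0503% of all genes did. None reached an unadjusted p under 0.05, against 5.35% of all genes tested, and none had groups that did not overlap, against 10.2%. Exact permutation of the genotypes, two-sided, gave p from 0.4 for H2-Aa to 0.7 for H2-Ab1, H2-DMa and Cd74, where 0.1 is the smallest value that it can give. The median log2 fold change of the 7 genes was 0.21, and that of all 11931 tested genes was 0.18. After median-of-ratios scaling, which sets the median of all genes to 0.00, it was 0.01. H2-DMb1 then stood at -0.13, so the sign of its small difference depended on the scaling. The intervals, from the fit without the block, also show what that fit could not resolve. For the I-A chains and Cd74 a rise of up to 1.79-fold to 1.88-fold lies within them. With the experiments as a block the SE was smaller, at 0.19 for H2-Aa, 0.25 for H2-Ab1 and 0.23 for Cd74.

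The I-A chains and Cd74 were highest in experiment 3 in both genotypes. Averaged over the pair of libraries, H2-Aa was higher in experiment 3 than in experiment 2 by 0.77 on the log2 scale, H2-Ab1 by 0.69, H2-Eb1 by 0.89 and Cd74 by 1.05, while H2-DMa was lower by -0.26. A moderated F test of the experiment term in limma, added after the values had been seen, gave an unadjusted p of 0.00772 for Cd74 and 0.0133 for H2-Aa, so that 2 of the 7 genes were under 0.05 where 8.67% of all genes were. None of the 7 passed after Benjamini-Hochberg adjustment (limma adjusted p = 0.522 for Cd74, 0.553 for H2-Aa), where 0.00838% of all genes passed. The size factors of the libraries were set beside this pattern, and their part in it was not tested. They were 0.914, 0.815 and 1.14 for WT and 0.915, 1.13 and 1.23 for db/db, and the mean centred log2 level of the 7 genes was 0.03, -0.45 and 0.38 for WT and -0.19, -0.11 and 0.35 for db/db. The log2 size factor was -0.13 in WT replicate 1 and 0.18 in db/db replicate 2, opposite in sign to these means of all 7 genes. In WT replicate 1 the mean rested on Ciita, which stood at 0.97. In WT replicate 1 and db/db replicate 2, Cd74 stood at -0.12 and 0.05, H2-Aa at -0.20 and -0.08, and H2-Ab1 at 0.04 and 0.235. After median-of-ratios scaling the means of the 7 genes were 0.17, -0.16 and 0.22 for WT and -0.06, -0.26 and 0.08 for db/db. The difference of experiment 3 from experiment 2 was then 0.47 for H2-Aa, 0.39 for H2-Ab1 and 0.75 for Cd74, with an unadjusted p of 0.159 for H2-Aa and 0.0481 for Cd74. For H2-DMa the scaling widened the difference, to -0.56 from experiment 2 and -0.98 from experiment 1 (unadjusted p = 0.0126, limma adjusted p = 0.589). Of the 7 genes, Cd74 and H2-DMa were thus under 0.05 in the scaled fit, where 826 of all 11896 tested genes were. None of the 7 passed after adjustment there. From experiment 1 to experiment 3, Cd74 was higher and H2-DMa lower under both scalings.

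**Figure D3:**
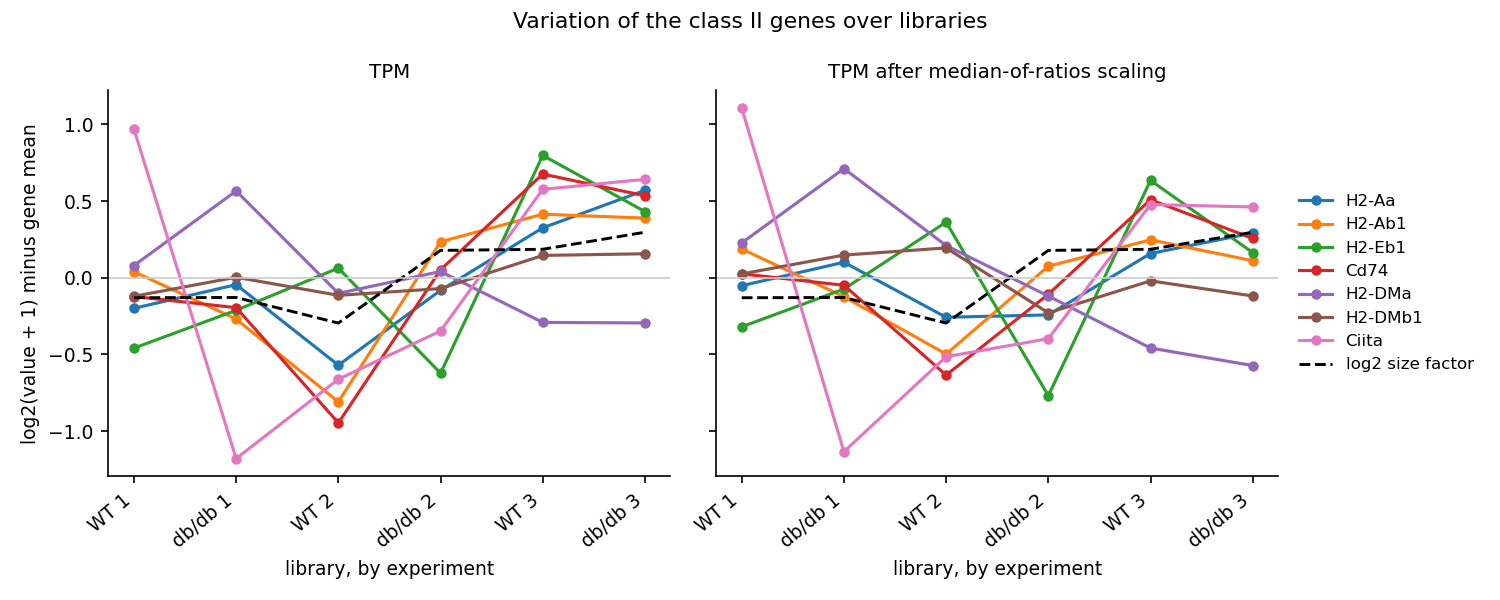
Each class II gene's log2(value + 1) minus its own mean over the 6 libraries, which are ordered by experiment. The left panel uses TPM and the right panel TPM after median-of-ratios scaling, and the dashed line is the log2 size factor of each library. H2-Aa, H2-Ab1 and Cd74 are lowest in WT replicate 2 and high in both libraries of experiment 3, while H2-DMa is lowest there.

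Outside the 7 genes, the 5 tested genes whose centred log2 profile over the 6 libraries lay nearest to the mean profile of the class II genes were Sf1, Vps11, Usp19, Ccndbp1 and Parp12. Their root mean square difference from it was 0.0519 for Sf1, a splicing factor, and up to 0.0695 for Parp12, a member of the PARP family. Sf1 was 118, 88.0 and 164 TPM across WT and 109, 113 and 145 TPM across db/db, lowest in WT replicate 2 and highest in WT replicate 3. Usp19 and Ccndbp1, with means between 38.3 and 108 TPM in both genotypes, were likewise lowest in WT replicate 2 and highest in WT replicate 3. None of these genes belongs to the MHC.

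Other genes of the class II region were read in their RefSeq order along chromosome 17, from H2-Oa to the E alpha gene. H2-Oa and H2-Ob encode the DO dimer, which restrains DM and is best known from B cells. H2-Oa was 61.5, 31.4 and 55.8 TPM across WT and 66.9, 52.0 and 99.9 TPM across db/db, higher in db/db in all 3 experiments with overlapping groups (log2 fold change 0.55, SE 0.33, limma adjusted p = 0.919). For H2-Oa it was 0.26 without WT replicate 2, 0.30 without db/db replicate 3 and 0.36 after median-of-ratios scaling. H2-Ob was 11.4 ± 3.16 TPM for WT and 18 ± 6.19 TPM for db/db (SD, n = 3 each), and H2-Oa exceeded it by 2.75 to 7.53 times. H2-Eb2, whose promoter holds both cores, did not exceed 0.34 TPM in any library. Between H2-DMb1 and H2-Ob lie 4 genes of the class I pathway, Psmb9, Tap1, Psmb8 and Tap2. Of these the immunoproteasome subunit gene Psmb9 was the highest, at a mean of 432 TPM for WT and 408 TPM for db/db.

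**Figure D4:**
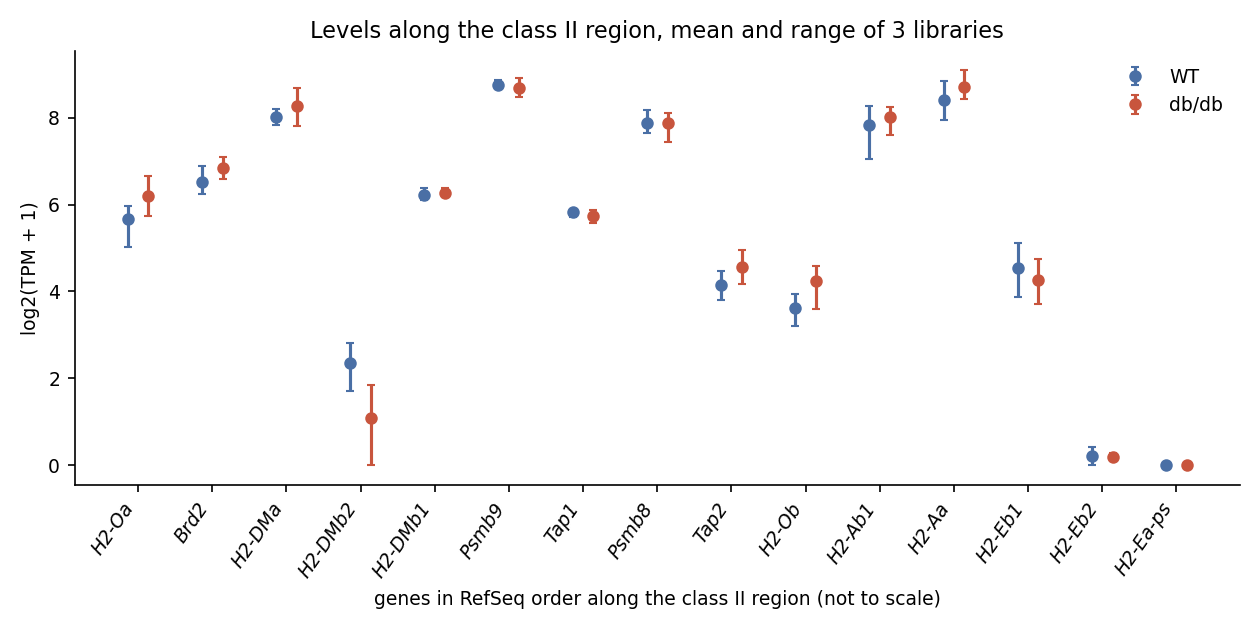
Levels of 15 genes in RefSeq order along the class II region, as log2(TPM + 1), with the mean of 3 libraries as a point and their range as a bar for WT (blue) and db/db (red). Distances are not to scale. The ranges of the genotypes overlap for each class II gene above 0, and H2-Eb2 and H2-Ea-ps lie at or near 0.

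Genes that act on the class II pathway were taken from 7 lists chosen by name, with 45 genes in the table and 35 tested. Of the 35, 0 passed as higher and 0 as lower over all genes in limma (Benjamini-Hochberg), and at an unadjusted p under 0.05 there were 3 with a positive difference and 1 with a negative one, against 5.35% of all genes in either direction. The median log2 fold change of the 35 was 0.31, beside 0.18 for all genes. Among factors of the promoter module, Nfyb, a subunit of NF-Y, was 6.03, 10.2 and 14.9 TPM across WT and 12.5, 23.5 and 27.9 TPM across db/db. Its db/db library was the higher one in each of the 3 experiments, the groups overlapped, and it did not pass (log2 fold change 0.98, SE 0.42, limma unadjusted p = 0.0308, adjusted p = 0.899). Nfya, the gene of that list with the highest level, was 144 ± 58.2 TPM for WT and 182 ± 41.5 TPM for db/db, and Rfxank, a subunit of the RFX complex, was 8.41 ± 3.77 and 13.6 ± 3.68 TPM (SD, n = 3 each). The B cell factor Pax5 was listed at 0 in all libraries, and Irf4 reached 1.21 TPM at most.

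Interferon gamma induces Ciita in many cell types through JAK kinases. Ifng was listed at 0 in all libraries. Its receptor gene Ifngr1 was 45.2, 33.0 and 74.8 TPM across WT and 62.7, 128 and 67.7 TPM across db/db. Db/db replicate 2 was the highest, the sign was reversed in experiment 3, and the gene did not pass (log2 fold change 0.75, SE 0.34, limma unadjusted p = 0.0397, adjusted p = 0.919). For Ifngr1 it was 0.43 without db/db replicate 2 and 0.48 without WT replicate 2. Jak1 was 98.0 ± 31.4 TPM for WT and 131 ± 29.3 TPM for db/db (SD, n = 3 each). Of 7 tested genes of this list, 1 had an unadjusted p under 0.05, and that was Ifngr1.

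Proteases and reductases of the endosome cut antigen and the invariant chain. Of 6 tested genes of this list, 0 reached an unadjusted p under 0.05 in either direction. Ctsd, the aspartic protease cathepsin D, was the highest at 263 ± 21.5 TPM for WT and 256 ± 34.7 TPM for db/db, and Ctsb was 100 ± 22.1 and 94.2 ± 13.3 TPM (SD, n = 3 each). Ctsl was 41.7, 53.5 and 53.8 TPM across WT and 69.8, 71.6 and 55.1 TPM across db/db, without overlap, and did not pass (log2 fold change 0.39, SE 0.29, limma adjusted p = 0.920), and its log2 fold change was 0.20 after median-of-ratios scaling. Cathepsin S, the protease that finishes the cutting of the invariant chain in B cells and dendritic cells, was 15.9 ± 5.89 TPM for WT and 15.9 ± 3.13 TPM for db/db (SD, n = 3 each), so that Ctss lay below Ctsl in every library. Of the genes of class II turnover, March1, a ubiquitin ligase that removes class II from the surface, did not exceed 0.62 TPM and Cd83 did not exceed 0.88 TPM, and March8 was 11.6 ± 5.42 and 11.2 ± 4.42 TPM (SD, n = 3 each).

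T cells that meet class II also need costimulation. Cd80 and Cd40 did not exceed 0.47 TPM in any library, and Cd86 was 4.89 ± 2.60 TPM for WT and 3.29 ± 3.48 TPM for db/db (SD, n = 3 each). Of the inhibitory ligand genes, Cd274, which encodes PD-L1, was 14.8 ± 8.23 and 20.3 ± 5.57 TPM. Pdcd1lg2, which encodes PD-L2, was 5.36, 1.64 and 10.3 TPM across WT and 9.23, 11.2 and 14.8 TPM across db/db. Its db/db library was the higher one in each of the 3 experiments, the groups overlapped, and it did not pass (log2 fold change 1.13, SE 0.50, limma unadjusted p = 0.0358, adjusted p = 0.910). Leaving out WT replicate 2 lowered the log2 fold change of Pdcd1lg2 to 0.57. At the cell surface Cd74 also binds the cytokine Mif, with Cd44 or CXC chemokine receptors as partners. Mif was 958 ± 122 TPM for WT and 888 ± 300 TPM for db/db, Cd44 was 81.9 ± 17 and 110 ± 11.7 TPM, and Cxcr4 was 89.7 ± 38.1 and 119 ± 16.3 TPM (SD, n = 3 each). None of the 4 tested genes of that list reached an unadjusted p under 0.05.

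Markers of the HSC gate and of antigen-presenting cells were read in the same libraries. The stem cell genes Ly6a, Kit and Hlf lay between 163.89 and 462.98 TPM in all libraries. Of 10 B cell markers, Ms4a1, Ebf1, Pax5 and Blk were listed at 0 in every library, and apart from Cd79b the highest value of any was 1.45 TPM. Cd79b was 28.8 to 60.9 TPM and made up most of the summed level of that list, which was 33.3 to 61.2 TPM for WT and 29 to 61.1 TPM for db/db. Of 8 dendritic cell markers, Itgax, Cd209a and Ccr7 were listed at 0 in every library, and the list summed to 10.3 to 14.1 TPM for WT and 14.3 to 20.9 TPM for db/db. Fscn1 held the largest part of that sum, at 5.93 to 7.96 TPM for WT and 9.73 to 15.7 TPM for db/db. Other markers of the list were detected at low levels. Clec9a was 2.43, 1.68 and 1.57 TPM across WT and 0, 2.19 and 6.41 TPM across db/db. Zbtb46 was 1.42, 0.67 and 4.25 TPM across WT and 3, 0 and 3.9 TPM across db/db. Xcr1 was above 0 in every library and did not exceed 1.22 TPM. Among 4 plasmacytoid dendritic cell markers Siglech was listed at 0 and Bst2 was 39.2 to 84.9 TPM, and the list summed to 48.0 to 85.0 TPM for WT and 40.5 to 74.1 TPM for db/db. The 8 macrophage markers summed to 25.1 to 83.1 TPM for WT and 44.5 to 107 TPM for db/db, most of it Cd68. C1qb was 23, 0.17 and 2.61 TPM across WT and 6.68, 4.24 and 5.07 TPM across db/db. C1qc was 3.66, 0.17 and 0.72 TPM across WT and 23.4, 1.07 and 2.3 TPM across db/db. C1qa did not exceed 1.42 TPM and Csf1r did not exceed 2.44 TPM. Of the 5 tested macrophage markers 1, Vcam1, had an unadjusted p under 0.05 in limma, against 5.35% of all genes. Vcam1 was 6.36, 0.15 and 0 TPM across WT (mean 2.17) and 4.92, 10.6 and 2.25 TPM across db/db (mean 5.93). The groups overlapped, the sign was reversed in experiment 1, and Vcam1 did not pass (limma adjusted p = 0.899). By comparison the 7 class II genes summed to 892 to 1627 TPM for WT and 1321 to 1651 TPM for db/db. In RNA from sorted cells as a whole, fewer cells with a transcript and less of it per cell cannot be told apart. Which cells of the gate held the class II transcripts was not tested.

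**Figure D5:**
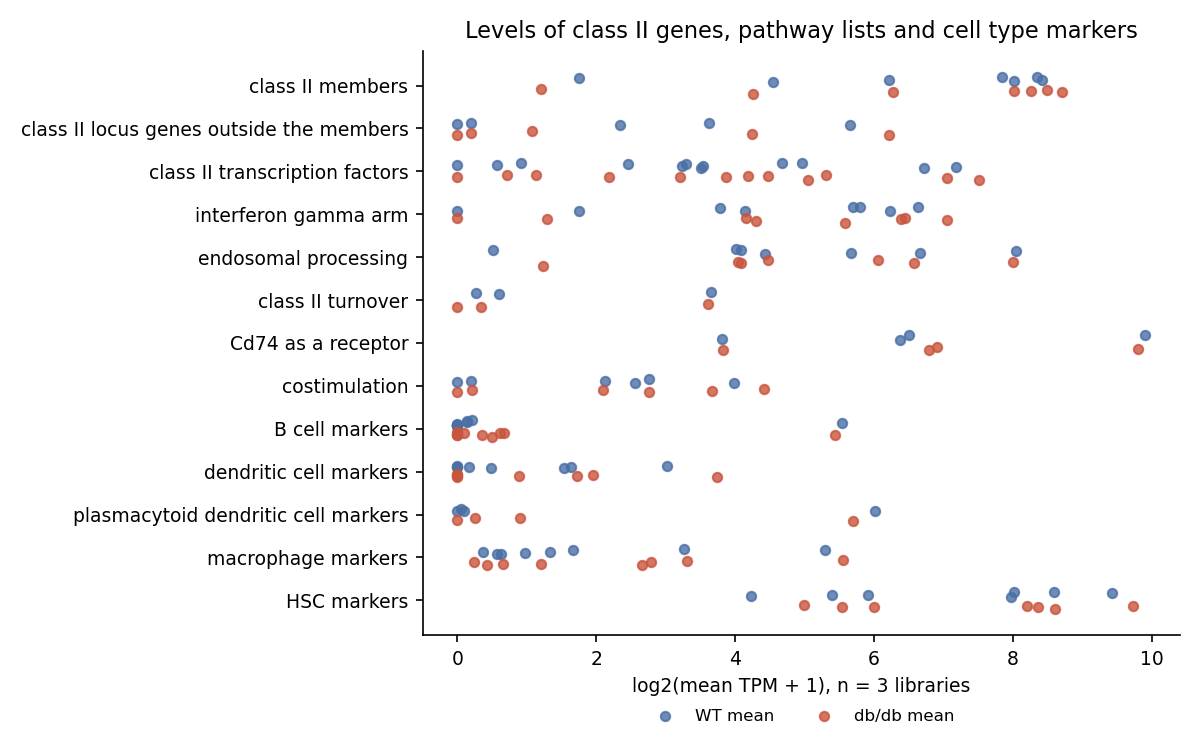
Mean level of each gene as log2(mean TPM + 1) in WT (blue) and db/db (red) HSCs, 3 libraries each, for the 7 class II genes, the 7 pathway lists and the marker lists. H2-Aa, Cd74, H2-DMa and H2-Ab1 lie near the HSC markers Ly6a, Kit and Hlf, and all B cell markers but Cd79b lie near 0.

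WT replicate 1 stood apart from the other WT libraries in the granule genes. Of these, 5 of 5 had an unadjusted p under 0.05 in limma, against 5.35% of all genes tested, and 0 an adjusted p under 0.05. The groups overlapped for each, and exact permutation gave p = 0.4 for each. All 5 were highest in WT replicate 1 and next highest in db/db replicate 1, so they are not 5 separate results. The granule genes were lower in db/db in experiment 1 and higher in experiments 2 and 3. WT replicate 1 was neither the highest nor the lowest library for H2-Aa, H2-Ab1, Cd74 or H2-DMa, but it was the highest for Ciita and the lowest for H2-DMb1. Without WT replicate 1 the log2 fold change was 0.27 for H2-Aa, 0.32 for H2-Ab1, 0.27 for Cd74, 0.30 for H2-DMa, 0.01 for H2-DMb1, -0.56 for H2-Eb1 and -0.25 for Ciita, and none passed in limma.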

How the data were processed

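RNA was measured in 6 libraries of sorted HSCs, amplified, prepared with a stranded poly(A) kit and sequenced from both ends (75 nucleotides each), per the labels' protocols. The values that the authors deposited are TPM per gene symbol. The submitters' processing notes name RSEM, Bowtie2 and mm9, and versions or annotation are not given in the sources used here. As TPM does not hold it, the depth is unknown, and the error rests on the spread between libraries, which may be technical. The fit draws the spread of each gene toward that of genes of similar level, with 17.7 prior against 4 residual degrees of freedom. H2-DMb1 and Cd74 had residual SDs of 0.14 and 0.63 on the log2 scale, but SEs of 0.27 and 0.31. Genotype was tested on log2(TPM + 1) with limma 3.58.1 (R 4.3.3) for genes whose mean reached 1 TPM, with a trended prior, 95% intervals and Benjamini-Hochberg adjustment over all 11931 genes. The threshold was an adjusted p under 0.05. The script was tested on simulated data.

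The members and lists were chosen with earlier results of these data known. Named genes were all members, from each pathway list the 2 of smallest p and the highest mean, from each marker list the 2 highest, and the 5 most alike in profile. Others named with levels were chosen after their values were seen. The labels pair the libraries by experiment. Deviations from group means correlated across genes at 0.04, 0.01 and 0.16 within experiments, and the fit without the block was the main one. Alternatives were other pseudocounts, filters, scalings, priors, array weights, the replicate block and each library left out. Added after the values were seen were the removal of Rn45s, Gm20594 and Lars2, the sum of H2-DMb1 and H2-DMb2, and the test of experiments.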

Additional observations from a re-analysis of the deposited data

How the results depend on the processing

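No member and no pathway gene passed under any alternative. With the experiment as a replicate block the number of genes called over the whole table was 6 against 4, and the block changed no call of a gene described here. That number was 0 with no filter and without a trended prior, 1 after median-of-ratios scaling, after quantile normalization and with a robust prior, and 16 with array weights. It ran from 0 without db/db replicate 2 to 16 without WT replicate 1. The median log2 fold change of the members was 0.0137 after median-of-ratios scaling and ran from -0.11 without WT replicate 2 to 0.27 without WT replicate 1. Signs of small differences changed. H2-DMb1 was -0.13 after median-of-ratios scaling and -0.12 after quantile normalization, and array weights gave 0.0532 for H2-Eb1, 0.00659 for Ctsd and 0.10 for March8. Leaving out 1 library gave -0.15 to 0.66 for Cd74, -0.11 to 0.50 for H2-Ab1, -0.0224 to 0.41 for H2-DMa, -0.0037 to 0.15 for H2-DMb1, -0.56 to 0.0637 for H2-Eb1, -0.25 to 0.0732 for Ctsb, -0.16 to 0.0195 for Ctsd and -0.32 to 0.31 for March8. The cause was not tested. Ciita had no value at a mean of at least 5 TPM. Unknown depth limits what the low levels of Ciita can show.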
